A study of Mus musculus with 16 samples.

Results

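The glutathione transferase genes Gsta2 and Gstm1 to Gstm7 were examined in H3K27Ac ChIP-seq peak lists of 15 mice, 1 list per animal. The 8 genes were followed through a pair of fixed windows on the mm9 mouse genome, chr9:78168000-78206000 for Gsta2 and chr3:107690000-107870000 for the Gstm cluster. When the peaks of all animals were joined wherever they overlapped, 15 merged regions touched the windows, 1 at Gsta2 and 14 at Gstm, out of 56941 on chromosomes 1 to 19 and X. The WT group held livers of 5 FVB.129P2 mice with an intact Mdr2 gene, aged 14 to 19 months. The strain is given as labelled, while the methods of the study name FVB/NJ for the wild type. The inflamed group held livers of 5 Mdr2-/- mice (FVB.129P2-Abcb4tm1Bor/J) aged 7 to 8 months, and the HCC group held nodules of hepatocellular carcinoma from 5 Mdr2-/- mice aged 14 to 19 months. Below, a nodule stands for the HCC sample of 1 animal, and the number of nodules in it is not known here. All 15 animals, controls included, had received clodronate liposomes (50 ug/g body weight) for 48 h before collection, which depletes liver macrophages (the dose is the labelled one, and the study's methods state another amount). Mdr2 (Abcb4) is the canalicular transporter that moves phospholipid into bile, and it is absent from every cell of the knockout, not from hepatocytes alone. Inflamed livers were younger than WT livers and than nodules, so age and disease stage cannot be told apart in either comparison. The study calls its wild-type mice age matched, while the ages given here are the labelled ones. The tissue was bulk liver or nodule, so a change in the cell types present and a change within a cell type cannot be told apart either.

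Glutathione transferases are Phase II enzymes that couple glutathione to reactive or electrophilic compounds, which makes them more soluble and easier to export. Gsta2 encodes an alpha class enzyme and the Gstm genes encode mu class enzymes, and both classes are abundant in hepatocytes. Their transcription is known to respond to oxidative and xenobiotic stress through NRF2, which binds antioxidant response elements, and through nuclear receptors such as CAR. Acetylation of histone H3 at lysine 27 (H3K27Ac) marks active promoters and enhancers, and it can spread over whole gene bodies at strongly used liver loci. In RefSeq (GRCm38.p6) the Gstm genes stand in the order Gstm5, Gstm7, Gstm6, Gstm3, Gstm2, Gstm1 and Gstm4 by rising coordinate, with Eps8l3 before and Ampd2 after them. Gstm5 is on the plus strand, and Gsta2 and the other Gstm genes are on the minus strand. The peaks were on mm9, for which no annotation was used here, so a peak was assigned to a window and not to a gene.

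All 8 genes had promoter entries in RefSeq (13 in all), and the 250 bases before each start were searched on both strands for 4 motifs. These were the core of the antioxidant response element (TGACNNNGC), the AP-1 site (TGANTCA), the nuclear receptor core site (AGGTCA) and the C/EBP site (TTGCNNAA). The first is the letter pattern of NRF2 binding, the second of JUN and FOS factors, the third of receptors such as CAR, and the fourth of C/EBP factors. In 5 of the 8 genes no entry held any of them. The 3 genes with a match are printed with Gsta2, to show where in the sequence these letters stand. Capitals mark the matches, and each sequence is written 5′ to 3′ on the gene's own strand (GRCm38.p6) up to the base before the start.
Gsta2 (no match, minus strand): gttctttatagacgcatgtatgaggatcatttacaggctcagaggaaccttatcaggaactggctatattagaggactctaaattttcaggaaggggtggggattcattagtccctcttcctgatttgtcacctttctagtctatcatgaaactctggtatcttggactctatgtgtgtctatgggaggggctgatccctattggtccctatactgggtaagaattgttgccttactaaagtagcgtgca
Gstm5 (AP-1 site, then antioxidant response element core, plus strand): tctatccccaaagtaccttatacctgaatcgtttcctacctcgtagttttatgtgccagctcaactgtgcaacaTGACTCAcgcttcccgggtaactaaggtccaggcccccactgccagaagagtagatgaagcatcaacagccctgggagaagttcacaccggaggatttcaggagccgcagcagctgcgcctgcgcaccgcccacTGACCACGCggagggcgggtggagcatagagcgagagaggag
Gstm7 (second entry, antioxidant response element core, minus strand): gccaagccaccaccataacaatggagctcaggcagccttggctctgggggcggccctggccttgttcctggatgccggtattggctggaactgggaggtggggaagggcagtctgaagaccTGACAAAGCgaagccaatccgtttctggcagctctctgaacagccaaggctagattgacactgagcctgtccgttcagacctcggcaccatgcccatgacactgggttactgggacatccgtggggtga
Gstm2 (C/EBP site, minus strand): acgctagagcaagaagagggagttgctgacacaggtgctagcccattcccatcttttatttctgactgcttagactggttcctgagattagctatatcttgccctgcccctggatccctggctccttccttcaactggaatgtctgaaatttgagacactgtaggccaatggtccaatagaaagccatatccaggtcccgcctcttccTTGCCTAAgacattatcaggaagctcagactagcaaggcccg
The antioxidant response element core of Gstm5 lay 42 to 34 bases before its start and its AP-1 site 176 to 170 bases before it. These matches are common, because 10.2% of the 32851 mouse promoter entries held TGACNNNGC, 6.75% held TGANTCA, 14% held AGGTCA and 9.56% held TTGCNNAA. An AP-1 site and an antioxidant response element core can share their first letters, but the matches printed here do not overlap. The promoters of the 7 Gstm genes had identities of 47.7% to 58.1% over 21 pairs (global alignment of the most similar entries). Gsta2 was closer to its relatives on the same chromosome, Gsta1, at 71.7%, and Gm3776, at 65.4%. Short reads from close relatives can be shared or lost in alignment, so peaks are uncertain where copies are nearly identical.

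Peak lists differed in size between groups, which bears on every value below. WT lists held 26375 to 30268 peaks, inflamed lists 35901 to 40909 and HCC lists 26683 to 42736. WT lists spanned 128 ± 15.6 Mb in total, those of inflamed livers 147 ± 9.40 Mb and those of nodules 144 ± 32.8 Mb (SD, n = 5). WT animal 130748, at 109 Mb, and HCC animal 124711, at 92.5 Mb, had the shortest covered length of their groups. They also had the highest shares of peaks at a score of 3100 or more, where the peak caller's score, which grows with enrichment, piles up, at 24.2% and 25.2% against 10.1% to 18.7% in the other animals. HCC animal 123390 had the widest peaks, with a median of 3972 bp. The number of reads behind each list is not known here, so lists were compared by the bases they cover and by the rank of a peak's score within its own list.

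H3K27Ac at Gsta2 was present in all 15 animals, and no difference in its total length was called between groups. Peaks lay at the end of the window with the higher coordinates, over chr9:78189845-78205147, and nothing was called in the first 21.8 kb in any animal. The covered length was 12317, 12085, 12430, 9655 and 8558 bp in the WT livers. It was 10941, 11381, 10994, 10462 and 12520 bp in the inflamed livers, and 9980, 14291, 11240, 13411 and 14497 bp in the nodules. The groups overlapped throughout, and 1 nodule (123390) covered the stretch with 1 unbroken peak of 14497 bp.

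**Figure D1:**
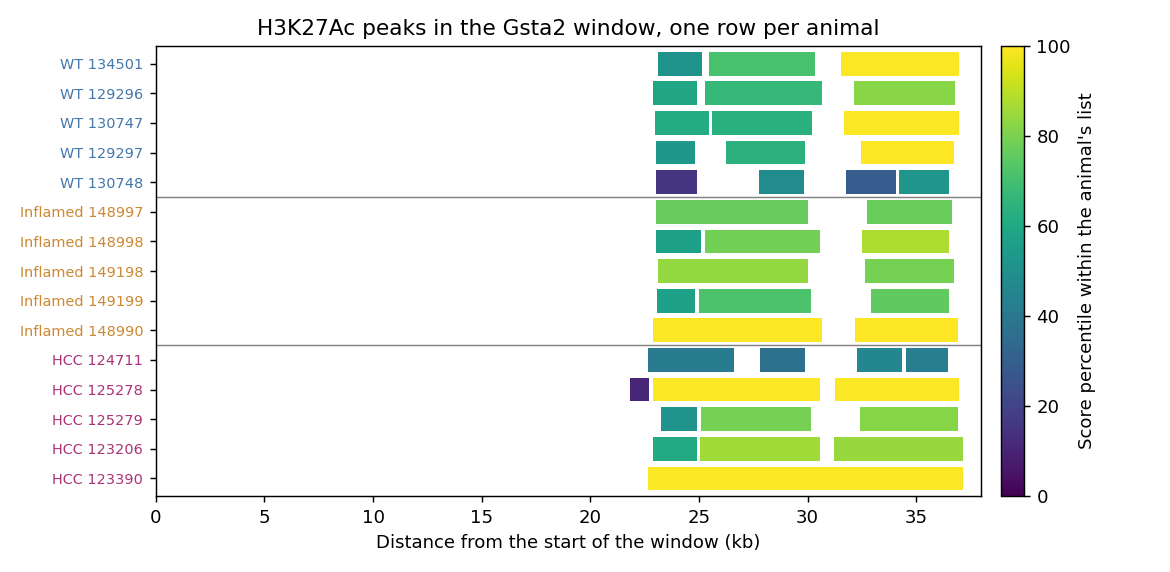
H3K27Ac peaks in the Gsta2 window, 1 row per animal, with distance from the window's start in kb on the x axis and colour giving the percentile of each peak's score within that animal's list. All 15 animals had peaks between 21.8 and 37.1 kb and none before.

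WT livers averaged 11009 ± 1784 bp at Gsta2, inflamed livers 11260 ± 776 bp and nodules 12684 ± 1987 bp (SD, n = 5). Inflamed exceeded WT by 251 bp (two-sided exact permutation test, p = 0.794). HCC exceeded inflamed by 1424 bp (exact p = 0.183) and WT by 1675 bp (exact p = 0.198). The direction of inflamed against WT turned per Mb under peaks (-8.81 bp) and without WT animal 130748 (-362 bp), and that of HCC against inflamed turned in the best 50% of each list (-743 bp). Of all tiles of the same width, 25.9% were called higher in inflamed livers than in WT at an unadjusted exact p under 0.05. The smallest p that 5 against 5 animals can give is 0.00794. In the part of the window shown in the study's genome snapshot, chr9:78178580-78195200, inflamed livers covered 4109 ± 156 bp and WT livers 3283 ± 949 bp, and this shorter window passed the threshold (exact p = 0.0476). The low values there were those of WT animals 129297, at 2728 bp, and 130748, at 1885 bp, while the other 3 WT livers held 3736 to 4098 bp.

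The rank of the Gsta2 peaks within each list was examined by segments. A segment is a run of bases under a peak in at least 3 of the 5 animals of a group. At Gsta2 they were chr9:78190877-78198548, which reaches into the snapshot, chr9:78199241-78204981 and a remnant of 30 bp. A segment's score percentile is the share of the animal's own list that its best peak equals or exceeds, with 0 for no peak. In the first of these it was 70.9, 66.6, 63.3, 63.8 and 47.7 in WT and 76.8, 78.9, 83.7, 71.6 and 99.4 in inflamed livers. The difference of means was 19.6 (exact permutation test, p = 0.00794; Benjamini-Hochberg adjusted p over all segments 0.0292), in a comparison where 39.5% of 40943 segments were called higher and the median change was 9.22. Inflamed lists are also longer than WT lists, and with every list held to its best 26375 peaks the difference was 14.0 and was not called (exact p = 0.127). In nodules the same segment ranked at 41.5, 99.4, 79.1, 85.7 and 99.5, which overlapped both other groups. The second segment ranked at 86.5 ± 20.7 in WT, 83.9 ± 10.1 in inflamed livers and 82.2 ± 22.0 in nodules (SD, n = 5), with no difference in rank called. Its covered length was 5430, 4672, 5307, 4267 and 4599 bp in WT and 3937, 3974, 4089, 3613 and 4727 bp in inflamed livers, while nodules held 3997, 5741, 4505, 5741 and 5741 bp. Inflamed livers overlapped WT through animal 148990, and their mean fell by 787 bp (exact permutation test, p = 0.0317, adjusted p = 0.114), where 12.3% of segments were called lower. The call held in lists of equal length, but it was lost in the best 50% of each list (exact p = 0.619) and when any of 6 of the 10 animals was left out. This difference ran opposite to that in the snapshot window. WT animal 130748 and HCC animal 124711 had the lowest ranks in their groups in both segments.

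The Gstm cluster was among the stretches of the genome most widely covered by H3K27Ac peaks in every animal. It was more widely covered in Mdr2-/- tissue than in WT liver. The covered length was 77495, 72182, 73173, 55713 and 70135 bp in WT. It was 82792, 82247, 85226, 80967 and 88036 bp in inflamed livers, and 83648, 88224, 87401, 81435 and 122670 bp in nodules. Every Mdr2-/- sample lay above every WT sample, and nodules overlapped inflamed livers, with nodules 125278 and 123390 above the highest inflamed liver. As a share of the window this was 38.7% ± 4.60 in WT, 46.6% ± 1.56 in inflamed livers and 51.5% ± 9.44 in HCC (SD, n = 5).

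**Figure D2:**
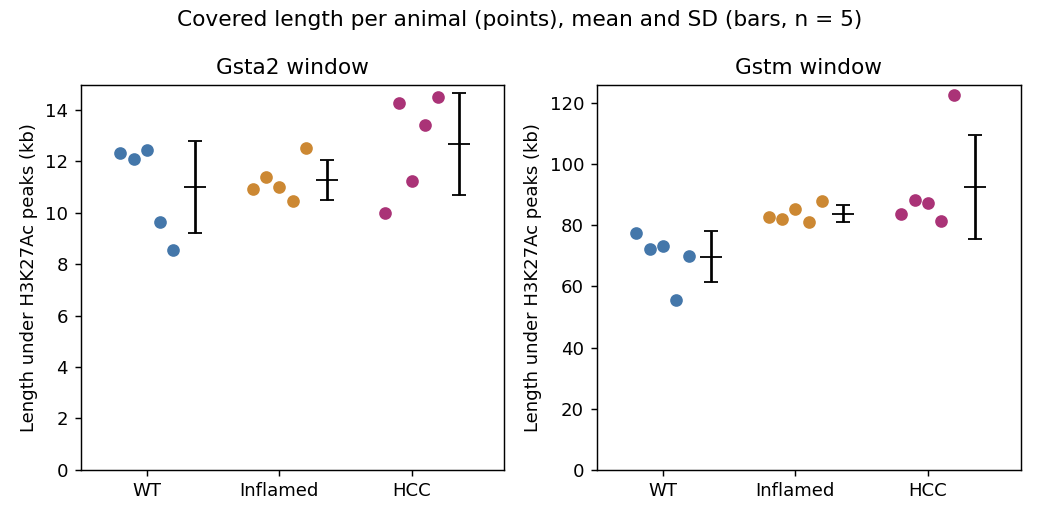
Length under H3K27Ac peaks in kb in the Gsta2 window (left) and the Gstm window (right), 1 point per animal, with the mean and SD of each group (n = 5) beside the points. The groups overlap at Gsta2, and at Gstm all inflamed livers and nodules lie above all WT livers.

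Inflamed livers covered 1.20 times the WT length at Gstm, a difference of 14114 bp (two-sided exact permutation test, p = 0.00794; Benjamini-Hochberg adjusted p over all tiles 0.0341). The background for that comparison is high, with 32.1% of 9139 tiles of the same width called higher. The difference at Gstm was larger than that of 94.0% of these tiles, whose median was 976 bp. Nodules covered 1.33 times the WT length, a difference of 22936 bp (exact p = 0.00794, adjusted p = 0.305). Here 7.43% of 9391 tiles were called higher, and the difference at Gstm was larger than that of 99.1% of them. Both ranks compare differences in bp over tiles of any coverage, most of them far less covered than Gstm. A widely covered window can differ by more bp, and tiles of like coverage were not compared apart. HCC exceeded inflamed livers by 8822 bp, which was not called in the full lists (exact p = 0.246), with 4.24% of tiles called higher. The difference was 17961 bp and called in the best 50% of each list (exact p = 0.0238), and 13501 bp without a call in lists of equal length (exact p = 0.0714). In the best 50%, inflamed animal 148990 held 53712 bp and the other inflamed livers 63212 to 71219 bp. Without HCC animal 123390 the difference of nodules from inflamed livers in the full lists fell to 1323 bp and the one from WT to 15437 bp, the latter still called (exact p = 0.0159).

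The calls at Gstm depended in part on the measure. Per Mb of all sequence under peaks, the Gstm window took 547 ± 72.6 bp in WT, while inflamed livers had 571 ± 29.1 bp there and nodules 664 ± 157 bp (SD, n = 5). The exact permutation test then called neither Mdr2-/- group different from WT (p = 0.476 for inflamed and p = 0.190 for HCC). With every list held to its best 26375 peaks the excess of inflamed livers was 8529 bp (exact p = 0.0873), while that of nodules was still called. The number of peaks in the window averaged 13.2 ± 1.30 in WT, 16.0 ± 1.87 in inflamed livers and 13.4 ± 1.14 in nodules (SD, n = 5), with no difference called by the exact test.

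**Figure D3:**
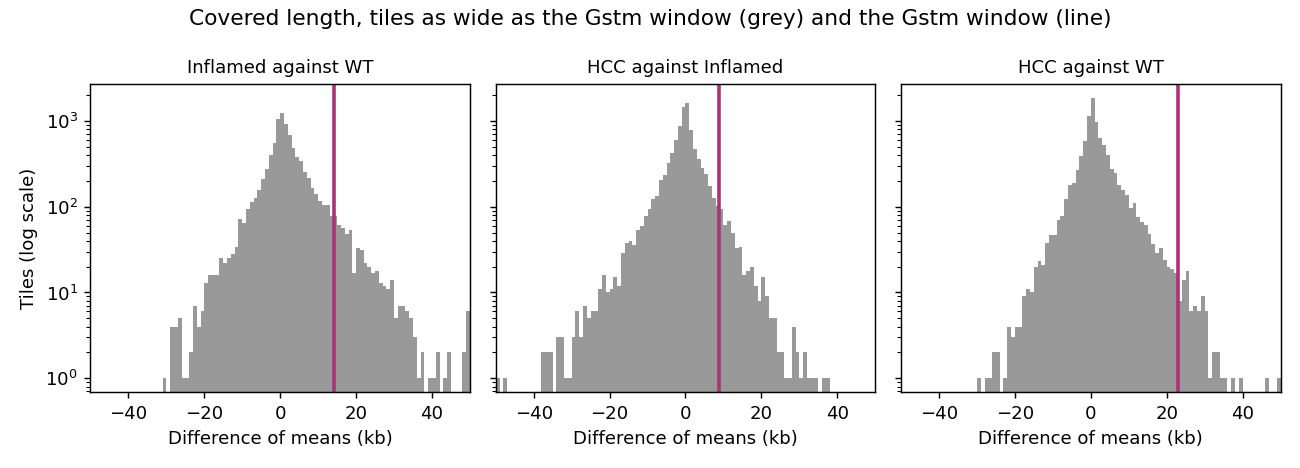
Differences of group means in covered length (x axis, kb) over all tiles as wide as the Gstm window (grey, number of tiles on a log scale; tiles beyond 50 kb are counted in the outermost bins) for 3 comparisons, with the Gstm window as a line. The line lies above 94.0% of tiles for inflamed against WT and above 99.1% for HCC against WT.

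Ranked against tiles of the same width in its own list, the Gstm window had a percentile of 97.6 to 99.0 in WT livers, 99.4 to 99.6 in inflamed livers and 99.1 to 99.8 in nodules, so every Mdr2-/- sample ranked above every WT liver. The Gsta2 window stood lower and varied more, with percentiles of 82.7 to 91.1 over all 15 animals. Elsewhere in the genome, the tiles whose length over the 15 animals followed the Gstm window most closely were on chromosomes 18, 1 and 8 (Pearson r = 0.936, 0.934 and 0.908 among 8268 tiles, median 0.166). For the Gsta2 window they were on chromosomes 3, 16 and 8 (r = 0.929, 0.915 and 0.909 among 22343 tiles, median 0.192). These are descriptions, since all 15 points share the size of their lists, and the length at Gstm itself had r = 0.556 with the total length under peaks.

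Within the Gstm cluster the regions differed in what they did. Of the 8 merged regions with a peak in both groups, 3 were called longer in inflamed livers than in WT and 1 shorter. Over the 27651 such regions of the genome the shares were 18.8% longer and 12.7% shorter. The median difference was 926 bp for these 8 regions and 25 bp for all of them, in bp and without regard to the length of a region. The other 2 regions with a peak in inflamed livers had none in any WT liver, and with them 5 of 10 were longer, where 21.7% of 44697 were. That count is a description, because a region found through inflamed livers alone had to be longer there. Between nodules and WT, 2 of 8 regions with a peak in both groups were called longer in nodules, where 4.27% of 29775 were, and between nodules and inflamed livers 1 of 10 was, where 4.15% of 33532 were. The region chr3:107720289-107727463, with a peak in only 1 WT liver, is among the 3 and among the 2 longer than WT. By covered length in the full lists, no region of either window was called lower in nodules. Presence of a peak (Fisher's exact test) gave 1 region lower in nodules than in inflamed livers. Of the 14 regions, 4 held a peak in HCC animal 123390 alone.

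**Figure D4:**
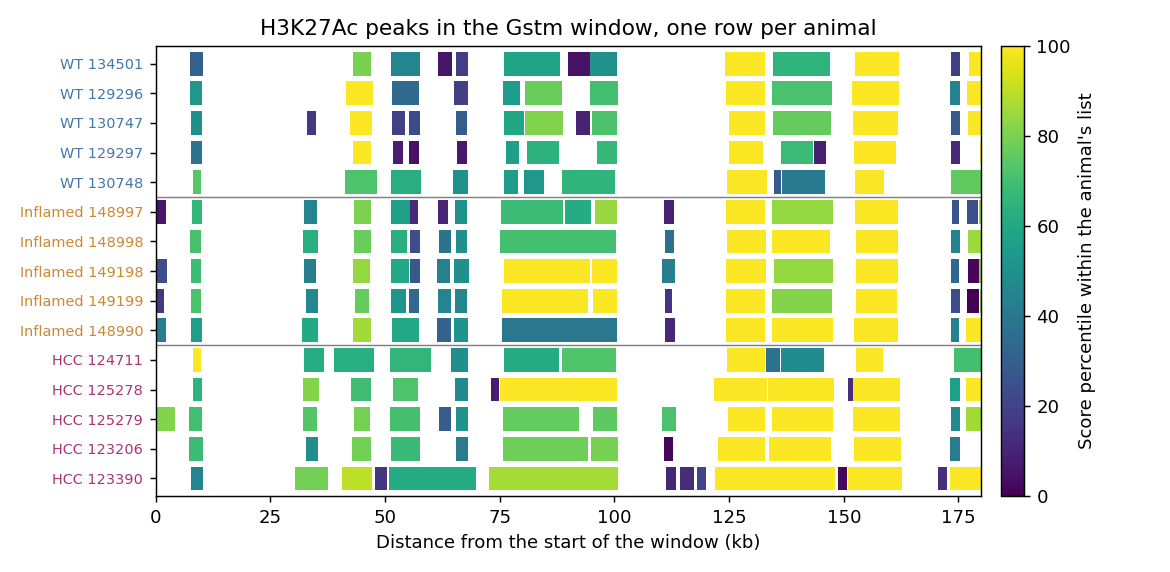
H3K27Ac peaks in the Gstm window, 1 row per animal, with distance from the window's start in kb on the x axis and colour giving the percentile of each peak's score within that animal's list. The peak at 32.1 to 35.7 kb is present in 1 WT liver and in all 10 Mdr2-/- samples, and the peaks at 122.7 to 132.9 kb and 152.1 to 162.3 kb are present in all 15.

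By presence of a peak, the clearest gain lay at chr3:107722145-107725661, 32.1 kb into the window. It held a peak in 1 of 5 WT livers (130747), while all 5 inflamed livers and all 5 nodules had one. The covered length of its merged region, chr3:107720289-107727463, was 2124 bp in that WT liver and 0 in the others, 2483 to 3373 bp in inflamed livers and 2695 to 7175 bp in nodules. Inflamed livers exceeded WT by 2500 bp and nodules exceeded WT by 3769 bp. These lengths are given without a test, because only 1 of 5 WT livers had a peak there. The score percentile of this segment was 15.8 in the WT liver with a peak, 45.4, 63.5, 42.9, 46.3 and 60.2 in inflamed livers, and 62.3, 81.5, 72.7, 48.8 and 78.7 in nodules. No Mdr2-/- sample ranked as low as a WT liver. These ranks against WT are a description, because the segment entered through the groups in which it had a peak. The difference in rank of nodules from inflamed livers was 17.2 (exact permutation test, p = 0.0476, adjusted p = 0.281), where 2.8% of segments were called higher. In lists of equal length it was 32.4 (exact p = 0.0238). This call was lost when any of 7 of the 10 animals was left out. For the covered length of the merged region, both differences from WT were the same in lists of equal length. They stayed positive with each animal left out. In the best 50% of each list the difference from WT was 1322 bp for inflamed livers and 3655 bp for nodules.

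Other gains seen in inflamed livers were shared by only some nodules. No difference in covered length between nodules and inflamed livers was called at these places. In the order given below, the exact permutation p was 0.381, 0.119 and 0.270. At chr3:107801040-107803075, 111.0 kb into the window, no WT liver had a peak, whereas 5 of 5 inflamed livers and 3 of 5 nodules did. Its merged region covered 1527 to 2809 bp in inflamed livers and 2156 to 3048 bp in the 3 nodules, given without a test against WT because WT livers had no peak there. These were weak peaks, with score percentiles of 8.99 to 42.4 in inflamed livers and 1.29, 10.6 and 71.1 in the nodules, and only 2 inflamed livers kept one in lists of equal length. At chr3:107751564-107754313, 61.6 kb in, a peak was called in 1 WT liver, 5 inflamed livers and 2 nodules. Its score percentile was 5.85 in that WT liver, 9.96 to 45.0 in inflamed livers and 29.0 and 61.7 in the nodules with a peak, given as a description because the segment entered through the inflamed group. The value of 61.7 belonged to a single peak of 18952 bp in nodule 123390 that also spanned the segments at 51.1 and 65.2 kb. In the best 50% of each list the inflamed livers and WT livers had no base covered at 61.6 kb. At the edge of the window on the side of Eps8l3 in RefSeq order, a region of 7763 bp starting at chr3:107686456 was likewise free of peaks in WT. It held one in 5 inflamed livers, covering 1997 to 5512 bp, and in 1 nodule (125279). In inflamed animal 148998 that peak lay outside the window. In lists of equal length only inflamed animal 148990 and the nodule kept a peak in it.

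The widest domain of the cluster, chr3:107765454-107790545, was filled in more completely in Mdr2-/- tissue. Its covered length was 22924, 17469, 21037, 14419 and 19127 bp in WT livers and 23615, 24873, 24018, 23827 and 25047 bp in inflamed livers. It was 23598, 25092, 21978, 24117 and 25092 bp in nodules. All inflamed livers lay above all WT livers, and the only overlap of nodules with WT was nodule 125279, below WT animal 134501. WT livers had 3 to 4 separate peaks across this stretch, inflamed livers 1 to 3 and nodules 1 to 2. For the merged region around it, inflamed livers exceeded WT by 5393 bp (exact permutation test, p = 0.00794, adjusted p = 0.0498) and nodules exceeded WT by 6081 bp (exact p = 0.0159, adjusted p = 0.603). Its score percentile did not separate the groups, at 69.6 ± 9.37 in WT, 78.6 ± 24.9 in inflamed livers and 82.8 ± 10.6 in nodules (SD, n = 5). In the best 50% of each list, the difference in length of inflamed livers from WT was not called (exact p = 0.849). Inflamed animal 148990 held 0 bp there in that setting, and its single peak of 25047 bp ranked at 39.7 in the full list. The other inflamed livers kept 23802 to 25276 bp and WT livers 14419 to 19127 bp.

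One region ran the other way. At chr3:107728781-107740506, 38.8 kb into the window, the covered length was 4097, 5894, 4867, 3946 and 6968 bp in WT and 3561, 3707, 3725, 3072 and 3899 bp in inflamed livers. Each inflamed liver was narrower than each WT liver, and the mean fell by 1562 bp (exact permutation test, p = 0.00794, adjusted p = 0.0498). Nodules held 8717, 4367, 3574, 4053 and 9521 bp, wider than inflamed livers by 2454 bp (exact p = 0.0317, adjusted p = 0.374) with no call against WT (exact p = 0.540). Nodules 124711 and 123390 carried most of the excess, which was 1585 bp without 123390 (exact p = 0.0317) and was no longer called when any 1 inflamed animal was left out. The call of inflamed livers below WT was lost without inflamed animal 149199 (exact p = 0.0556). A peak was present in all 15 animals, and its score percentile, 72.0 to 99.4 in WT, 76.3 to 86.1 in inflamed livers and 62.5 to 89.9 in nodules, gave no call.

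The segment at chr3:107741080-107747586, 51.1 kb into the window, ranked higher on average in nodules than in either other group, with overlap. Its score percentile was 45.7, 34.1, 22.6, 8.38 and 62.5 in WT, 56.4, 63.4, 60.1, 52.3 and 59.9 in inflamed livers and 65.4, 72.2, 70.2, 67.7 and 61.7 in nodules. Nodules exceeded inflamed livers by 9.05 (exact permutation test, p = 0.0159), where 2.8% of segments were called higher. They exceeded WT by 32.8 (exact p = 0.0159), where 9.09% were, and both calls held in lists of equal length. Nodule 123390, at 61.7, lay below inflamed animal 148998, at 63.4, and WT animal 130748, at 62.5. Inflamed livers exceeded WT by 23.7 (exact p = 0.0397), where 39.5% of segments were called higher. This call was lost in lists of equal length (exact p = 0.389) and when any of 6 of the 10 animals was left out. WT animal 130748, at 62.5, ranked with the Mdr2-/- samples, and the 3 adjusted p-values lay between 0.102 and 0.363.

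Farther along, the segment chr3:107823540-107837571 ranked at 64.8, 71.4, 76.4, 68.1 and 40.9 in WT and 83.6, 99.5, 84.3, 81.5 and 99.4 in inflamed livers. The groups did not overlap (exact permutation test, p = 0.00794, adjusted p = 0.0292), and the difference of 25.3 was 22.8 and still called in lists of equal length. Such calls are common, since 39.5% of all segments were called higher in rank in this comparison. In nodules it ranked at 47.7 in animal 124711 and at 99.3 to 99.5 in the other 4. The merged region that holds it, chr3:107811767-107838172, was longer in inflamed livers than in WT by 1597 bp (exact p = 0.0476, adjusted p = 0.153), a call lost when any of 4 of the inflamed animals was left out, or WT animal 129297 (871 bp, exact p = 0.0794).

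**Figure D5:**
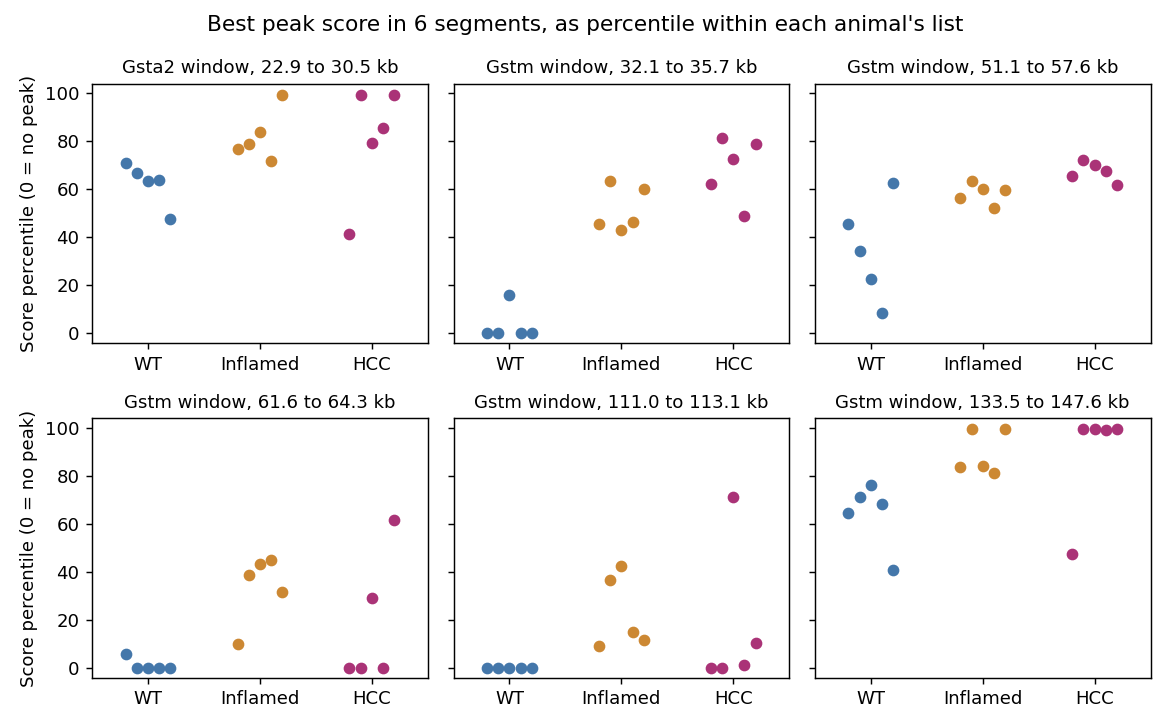
Score percentile of the best peak (y axis, 0 where no peak was called) in 6 segments of the Gsta2 and Gstm windows, 1 point per animal, with each segment's distance from the start of its window in kb above the panel. In the segment at 32.1 to 35.7 kb of the Gstm window, 4 WT livers are at 0 and all Mdr2-/- samples lie between 42.9 and 81.5.

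The strongest parts of the cluster were acetylated in every animal. The segments chr3:107812676-107822905 and chr3:107842093-107852308 held a peak at the top of the score scale in all 15 animals, at percentiles of 99.3 to 99.9. Their lengths were 8222 ± 492 bp and 8930 ± 1578 bp in WT, 8532 ± 125 bp and 9236 ± 288 bp in inflamed livers, and 9380 ± 1164 bp and 9348 ± 1878 bp in HCC (SD, n = 5), with no difference called. A score at the top of its scale cannot show a further rise. The segments at 7.6 kb, 65.2 kb, 173.2 kb and 176.7 kb into the window were likewise present in all 15 animals, and a remnant of 194 bp at 133.0 kb held a peak in 5 of them. Among these 4, the segment at 65.2 kb ranked higher in inflamed livers than in WT (exact permutation test, p = 0.0317) and the segment at 173.2 kb ranked higher in nodules than in inflamed livers (exact p = 0.0238), with adjusted p-values of 0.0891 and 0.255. Over all segments, 39.5% were called higher in the first of these comparisons and 2.8% in the second. The call at 173.2 kb was lost without inflamed animal 148997, 149198 or 149199 (exact p = 0.0556 each). The 2 highest nodule ranks there, 69.9 in 124711 and 99.5 in 123390, belonged to single peaks of 10925 and 11795 bp that also spanned the segment at 176.7 kb. The call at 65.2 kb was lost in lists of equal length (exact p = 0.365). At 65.2 kb nodules also ranked above WT, by 25.9 (exact p = 0.0317), where 9.09% of segments were called higher, and that call was lost too (exact p = 0.119).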

How the data were processed

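H3K27Ac ChIP-seq peaks had been called by the authors separately for each of 15 animals, and the submitters' processing notes name Bowtie 0.12.7, MACS 1.4 and the mm9 build. Each deposited list gives peak positions and the caller's score per peak (50 or more, with a pile-up at 3100). No reads were used, so depth is not known here and no counting interval is given. An IgG control was not analysed here. The study left some of these libraries out of its principal component analysis as outliers, and the labels do not say which, so all 15 lists were used. Bases under peaks were summed per animal in the windows, in all tiles of the same width and in regions merged over all animals (peaks sharing at least 1 bp), on chromosomes 1 to 19 and X. Group means were compared by two-sided exact permutation tests over the 252 assignments of 5 and 5 animals, at an unadjusted p under 0.05, with Benjamini-Hochberg adjustment over all tiles or regions (Python 3.11.15, NumPy and SciPy). The code was tested on simulated data. Named were all 8 genes by their window, every merged region touching a window, and the 3 tiles most correlated with each window. The members, windows and lists were chosen with earlier results of these data known. Segments, score percentiles and the omission of 2 animals were added after seeing the data. A segment had to hold a peak in 3 animals of a group, so no count over the segments of the windows is given. Nor is a test given of a segment's rank against a group largely free of its peaks, or of a single region's length against WT livers largely free of peaks there. The shares over all segments passed through the same filter and are printed only as background beside single calls. Regions with no peak in one of the groups compared are counted apart, a choice made after seeing the data. Members of the glutathione pathway and cell type markers, hepatocyte markers among them, were not located or checked, since no mm9 annotation was used. Nothing says that the animals shared a litter or a batch. Promoters came from RefSeq GRCm38.p6, and no coordinates of that build are used.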

Additional observations from a re-analysis of the deposited data

Results flagged for a closer look

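Covered length, length per Mb under peaks and number of peaks in each window gave 18 groups of 5 values. In 2 of them a sample's gap to its nearest neighbour, divided by the range, exceeded Dixon's 95% critical value for 5 samples. Chance flags about 1 in 20 for continuous values, a rate that does not hold for peak counts with ties. HCC animal 123390 covered 122670 bp of the Gstm window, where the other 4 nodules covered 81435 to 88224 bp. This list also had the widest peaks (median 3972 bp), and the part of peak width in its value was not tested. WT animal 130748 had 4 peaks in the Gsta2 window, where each of the other WT livers had 3. With the other counts tied, any single differing count would have been flagged, so nothing is drawn from this flag.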

How the results depend on the processing

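Counting peaks in place of bases gave -0.8 peaks between inflamed livers and WT and -0.4 between nodules and WT at Gsta2, and 2.8 (exact p = 0.0556), -2.6 between nodules and inflamed livers and 0.2 between nodules and WT (exact permutation p = 1) at Gstm. Per Mb under peaks, inflamed against WT was -8.81 bp at Gsta2 and 24.1 bp at Gstm, and HCC against WT was 118 bp at Gstm, the last 2 no longer called. With the best 50% of each list, HCC against inflamed was -743 bp at Gsta2 and 17961 bp at Gstm (exact permutation p = 0.0238), and inflamed against WT at Gstm was 9192 bp (exact permutation p = 0.0714). In that setting inflamed animal 148990 held 53712 bp at Gstm, the other inflamed livers 63212 to 71219 bp and WT livers 42326 to 61052 bp. With equal lists inflamed against WT at Gstm was 8529 bp. The snapshot window gave 826 bp for inflamed against WT at Gsta2. Extending the windows by 10000 bp changed no call.

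Without both WT animal 130748 and HCC animal 124711, inflamed against WT at Gsta2 was -362 bp, 3 regions were higher in HCC than in inflamed livers, and no call of the Gstm window changed. Leaving out each animal in turn gave -362 to 606 bp for inflamed against WT at Gsta2, negative without WT 130748, WT 129297 or inflamed 148990. At Gstm it gave 10607 to 16053 bp between inflamed livers and WT and 15437 to 25746 bp between nodules and WT, called in every case, and 1323 to 11632 bp for HCC against inflamed, never called.

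For merged regions of both windows, occupancy with Fisher's exact test gave 3 higher and 0 lower for inflamed against WT (5 and 1 by covered length, or 3 and 1 among regions with a peak in both groups; 2 regions free of peaks in WT are in both the 5 and the 3 by occupancy), 0 higher and 1 lower for nodules against inflamed livers, and 1 higher for nodules against WT. Requiring a peak over 50% of a region gave 1 and 0, 0 higher, and 0 higher. For inflamed against WT, the best 50% of each list gave 1 higher and equal lists gave 3. By score percentile, 0 were lower in inflamed livers than in WT and 2 were higher in HCC than in inflamed livers. Leaving out each animal gave 0 to 2 regions lower for inflamed against WT (0 without inflamed 149199, 2 without WT 129297), 0 to 3 higher for HCC against inflamed (0 without any 1 inflamed animal, 3 without HCC 124711 or 123206), 0 to 1 lower there (1 without HCC 125279), and 2 to 5 higher for HCC against WT (5 without HCC 124711). The score percentile of the segment at 122.7 kb in Gstm, tied at the top of the scale, changed by 0.089 between inflamed livers and WT and by 0.078 between nodules and WT, and by -0.13 and -0.030 in equal lists.

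No paired analysis was possible because the groups share no animal number. The cause of these changes was not tested. Depth could not be assessed without reads, 1 list per animal sets n at 5, and stage and age cannot be told apart for inflamed livers.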
